A study of Mus musculus with 23 samples.

Results

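The C/D box small nucleolar RNAs are described here across the pancreas of 23 mice, as the genes whose symbol starts with Snord and which had at least 10 counts in 7 or more mice. The count files listed 68 such symbols among 18512, and 27 of them met the count minimum. The mice were C57BL/6 of both sexes, 6 to 8 weeks old, and the pancreas was either not injured (baseline, 4 females and 4 males) or taken after caerulein, a secretagogue that causes pancreatitis when given in excess. Caerulein was injected into the peritoneum at 50 µg/kg every hour, 8 times a day on 2 consecutive days, and tissue was taken on day 7 (4 females and 4 males) or day 14 (3 females and 4 males). RNA came from tissue of the head of the pancreas, not from sorted cells, so that fewer cells of a type and less RNA per cell cannot be told apart. Each mouse gave 1 library of total RNA depleted of ribosomal RNA, and the value of a gene is the number of read fragments assigned to it. The 7 values needed to enter the set could come from any time point. Snord66 was at the edge of the rule, with at least 10 counts in 7 mice of which 0 were baseline mice, and Snord123 and Snord99, with 6 and 5 such mice, were just outside.

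C/D box snoRNAs are short nuclear RNAs that carry 2 conserved motifs, the C box near the 5′ end and the D box near the 3′ end, on which the proteins fibrillarin, Nop56, Nop58 and Snu13 assemble. The stretch upstream of a D box pairs with ribosomal RNA and directs fibrillarin to methylate a ribose there, while a few family members act in the cleavage of the ribosomal RNA precursor. In mammals most of them are cut out of introns of host genes, many of which encode ribosomal proteins or are non-coding transcripts made for the snoRNAs they carry. Acinar cells of the pancreas make secreted enzymes at a high rate and hold many ribosomes.

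The sequences below are those on which the comparisons turn, taken from the GENCODE vM21 transcripts for GRCm38 (mm10) and written 5′ to 3′ as DNA, with the C box (ATGATGA or GTGATGA, at most 1 mismatch, within the first 25 bases) and the D box (CTGA, the last one) in capitals. Snord49b, Snord49a and Snord65 are shown because they lie within 2410006H16Rik on the plus strand of chromosome 11, at chr11:62603079-62603150, chr11:62603450-62603521 and chr11:62604515-62604586, and rose at day 14.
Snord49b: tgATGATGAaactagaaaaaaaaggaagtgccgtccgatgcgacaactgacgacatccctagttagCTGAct
Snord49a: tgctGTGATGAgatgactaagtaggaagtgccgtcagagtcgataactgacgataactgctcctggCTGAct
Snord65: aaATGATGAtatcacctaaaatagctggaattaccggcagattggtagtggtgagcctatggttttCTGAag
The next 3 lie within Rpl13a on the minus strand of chromosome 7, at chr7:45126346-45126435, chr7:45126864-45126947 and chr7:45127382-45127464, and rose at day 14 as well.
Snord35a: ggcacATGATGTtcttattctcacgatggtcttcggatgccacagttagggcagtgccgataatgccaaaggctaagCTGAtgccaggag
Snord33: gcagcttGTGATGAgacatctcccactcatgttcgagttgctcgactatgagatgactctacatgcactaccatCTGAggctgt
Snord32a: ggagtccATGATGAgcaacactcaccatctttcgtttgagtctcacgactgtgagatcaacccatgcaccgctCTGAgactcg
Snord104 (chr11:106500993-106501062, plus strand) is shown as the member that fell at day 7 with TMM scaling but not with total count scaling, and Snord22 (chr19:8725866-8725991, plus strand) as the most abundant member.
Snord104: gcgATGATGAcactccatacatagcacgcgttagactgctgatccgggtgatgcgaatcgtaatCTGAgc
Snord22: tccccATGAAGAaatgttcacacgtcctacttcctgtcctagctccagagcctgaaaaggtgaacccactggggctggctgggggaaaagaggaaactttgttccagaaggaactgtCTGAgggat
Snord88c and Snord88a (chr7:44249852-44249941 and chr7:44250135-44250224, plus strand, both within 2410002F23Rik) are shown because they are near copies. They shared 45.1% of their 20-base windows, and the search found no C box in them. The paper counted uniquely mapped fragments, so that a fragment fitting both copies may be missing, which leaves their values uncertain.
Snord88c: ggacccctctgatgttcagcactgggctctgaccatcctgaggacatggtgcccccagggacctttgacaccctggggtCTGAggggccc
Snord88a: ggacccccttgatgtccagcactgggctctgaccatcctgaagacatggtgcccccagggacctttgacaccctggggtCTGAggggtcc

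The 27 members lay on 12 chromosomes and were 69 to 238 bases long, with a median of 87. The C box was found without a mismatch in 18 of them and with 1 mismatch in 6, and the D box in all 27. Over the 68 Snord symbols, 92.6% had a C box with at most 1 mismatch and 98.5% had CTGA in the last 24 bases, and over 42 Snora transcripts (the H/ACA box class, which guides pseudouridylation) the shares were 2.38% and 14.3%. A run of at least 12 bases that pairs without a gap with the small-subunit ribosomal RNA was found in 3 members, against 16.2% of all Snord symbols and 2.38% of the Snora transcripts. The 2 longest runs are shown in capitals. The run of Snord65 was 14 bases long and faced bases 631 to 644 of the ribosomal sequence, with 30 bases between it and the next CTGA, that of Snord45c (chr3:153912125-153912204, minus strand, in Rabggtb) was 16 bases long and faced bases 156 to 171, and that of Snord68, in Rpl13, was 12 bases long. A match is a description of the letters only, and pairing with the other ribosomal RNAs was not analysed here.
Snord65: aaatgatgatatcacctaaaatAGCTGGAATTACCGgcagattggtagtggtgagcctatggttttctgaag
Snord45c: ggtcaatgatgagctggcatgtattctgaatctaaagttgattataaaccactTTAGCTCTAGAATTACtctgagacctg

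A host gene spanned 26 of the 27 members on the same strand in this annotation, and Snord104 had none. Ribosomal protein genes and Rack1, a protein of the small ribosomal subunit, hosted 10 members, other protein-coding genes hosted 8 and non-coding genes hosted 8. An exon of at least 1 host transcript overlapped 11 members, and Snord8, within Chd8, also had a gene on the other strand. Fragments from unspliced host transcripts that fall inside a snoRNA cannot be told apart from the snoRNA in these counts, and the strand setting used for counting is not given in the sources used here.

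Total counts per mouse ran from 7059890 to 9567446, with medians of 7953000 at baseline, 8659000 at day 7 and 8963000 at day 14. Depth thus differed between the groups. By the paper's mapping statistics, the share of reads in coding exons was higher in every day 14 mouse used than in every other mouse. The duplicate rate was lower in every day 7 mouse than in every baseline mouse. A further day 14 female was left out by the paper for poor mapping. The part of these differences in the results was not tested. Levels are given as CPM, the fragments of a gene relative to the library total after scaling by TMM, a method that sets libraries to a common level over most genes. A level of 1 CPM stood for 5.75 to 8.12 fragments in the baseline mice, 8.99 to 13.4 on day 7 and 7.98 to 9.42 on day 14, so that low members are imprecise, and more so at baseline. The share of counts from Rn45s, the ribosomal RNA precursor, moved with the time points as well, with 1.92% to 2.45% at baseline, 0.916% to 1.88% on day 7, below every baseline mouse, and 1.45% to 2.20% on day 14, and its part in the results was not tested. The marker genes of pancreatic cell types moved with the time points. By adjusted p alone, 9 of 12 acinar markers were lower at day 7 and 5 of 12 at day 14, against 4 and 0 by the call rule given below. Their summed level ran from 387700 to 570000 CPM before injury, 234400 to 354500 on day 7 and 362900 to 419900 on day 14. With total count scaling, by adjusted p alone, 5 of the 12 were lower and 3 higher at day 7, and 3 were lower at day 14. Of 8 macrophage markers, 7 were higher at day 7 by the call rule given below and 0 at day 14, with summed levels of 41.9 to 176 CPM before injury, 108 to 269 on day 7 and 68.7 to 148 on day 14. Of 7 fibroblast markers, 6 were higher at day 7 and 2 at day 14, with summed levels of 318 to 631, 598 to 1144 and 504 to 711 CPM. Of 7 islet markers, 4 were higher at day 7 and 0 at day 14, with 111 to 489, 341 to 975 and 381 to 765 CPM. Of 6 ductal markers, 2 were higher at day 7 and 0 at day 14, with 74.2 to 118, 106 to 184 and 108 to 125 CPM. At day 7 the log2 fold changes of the 6 ran from -0.37 to 0.74, with a median of 0.03 and 3 above 0. Of 8 lymphocyte markers, 4 of them tested, and 5 endothelial markers, 0 were called at either day, with 0.174 to 59.2 and 67.1 to 107 CPM at baseline, 0.33 to 101 and 53.5 to 95.2 CPM at day 7, and 0.351 to 62.6 and 69.6 to 93.7 CPM at day 14. Of the endothelial markers, 1 was lower at day 7 by adjusted p alone. The T cell marker Cd3d had a median of 0 CPM at baseline. The part of the cell mixture in the results below was not tested.

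The counts assigned to the C/D box snoRNAs were uneven and rested on the longest members. Whether library preparation recovered RNAs of different lengths equally was not tested. The 4 members longer than 120 bases, Snord22, Snord15b, Snord17 and Snord15a, took 78.7% to 81.8% of the counts of all members in baseline mice. Per kilobase of annotated length, Snord22, an RNA known for its role in the maturation of small-subunit ribosomal RNA, had the highest baseline median (1181 CPM per kilobase), followed by Snord15b (500 CPM per kilobase), Snord17 (364 CPM per kilobase) and Snord104 (164 CPM per kilobase). Next came Snord49b, Snord49a, Snord32a and Snord83b, between 84.0 and 94.5 CPM per kilobase, and the ranges over baseline mice of these 4 overlapped. Snord66 had the lowest median with 7.58 CPM per kilobase. The length used to count fragments may differ from the annotated one, since the annotation used for counting is not given in the sources used here.

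The most abundant member was not called at either day. Snord22, within the non-coding host Snhg1, had 121 CPM in the lowest baseline mouse, 149 at the median and 178 in the highest, against 135, 158 and 184 CPM at day 7 and 119, 158 and 190 CPM at day 14. The 3 groups overlapped almost fully. Snord22 showed a log2 fold change of 0.09 ± 0.08 (SE) on day 7 and 0.07 ± 0.08 at day 14 (adjusted p = 0.46 and 0.78). Here and below the fold changes, SEs and adjusted p-values are those of edgeR's quasi-likelihood test over 12195 genes and all 23 mice with sex as a covariate, and both days share their 8 baseline mice. The SE is derived from the test itself.

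The question of the 2 main comparisons was whether these RNAs still differed from the uninjured pancreas 1 and 2 weeks after injury. Of the 27 members, 26 had enough counts for the test and Snord66 did not. A gene is called when its adjusted p is at most 0.05 and its fold change at least 1.5 in either direction. At day 7, 6 of 26 members were called higher (23.1%) and 0 lower, where 3.82% of all genes tested were called higher and 1.31% lower. At day 14, 9 of 26 were called higher (34.6%) and 0 lower, where 0.697% of all genes were called higher and 0.0902% lower. By adjusted p alone, 13 members were higher and 1 lower at day 7 (8.86% and 9.7% of all genes), and 10 were higher and 0 lower at day 14 (1.05% and 0.525%). The log2 fold change was above 0 for 24 of 26 members at day 7 and for 24 of 26 at day 14, against 53.7% and 51.6% of all genes. Total count scaling does not correct for the share of the library taken by the most abundant genes. It put 26 and 25 members above 0 and called 22 and 18 higher, where 30.1% and 3.61% of all genes were called higher. The median over all genes then moved to 0.47 and 0.22. At each day 24 of 26 members lay above that median, as with TMM scaling. With TMM scaling the median log2 fold change over the members was 0.42 for day 7 and 0.58 for day 14, beside 0.02 and 0.01 over all genes. These counts describe the members that passed the count minimum. Members with few counts at baseline reached it through the later mice, such as Snord87 and Snord45c (1 of 8 baseline mice with 10 counts each), Snord68 and Snord8 (2 each) and Snord88c (3). With at least 10 counts required in every mouse, 15 members were left, of which 4 were called at day 7 and 7 at day 14. Of the 9834 genes tested with this requirement, 2.43% and 0.59% were called higher. Of the members called without this requirement, it left out Snord35a, Snord65 and Snord87 at day 7 and Snord35a, Snord65 and Snord88c at day 14, while Snord15a at day 7 and Snord12 at day 14 passed the call with it.

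**Figure D1:**
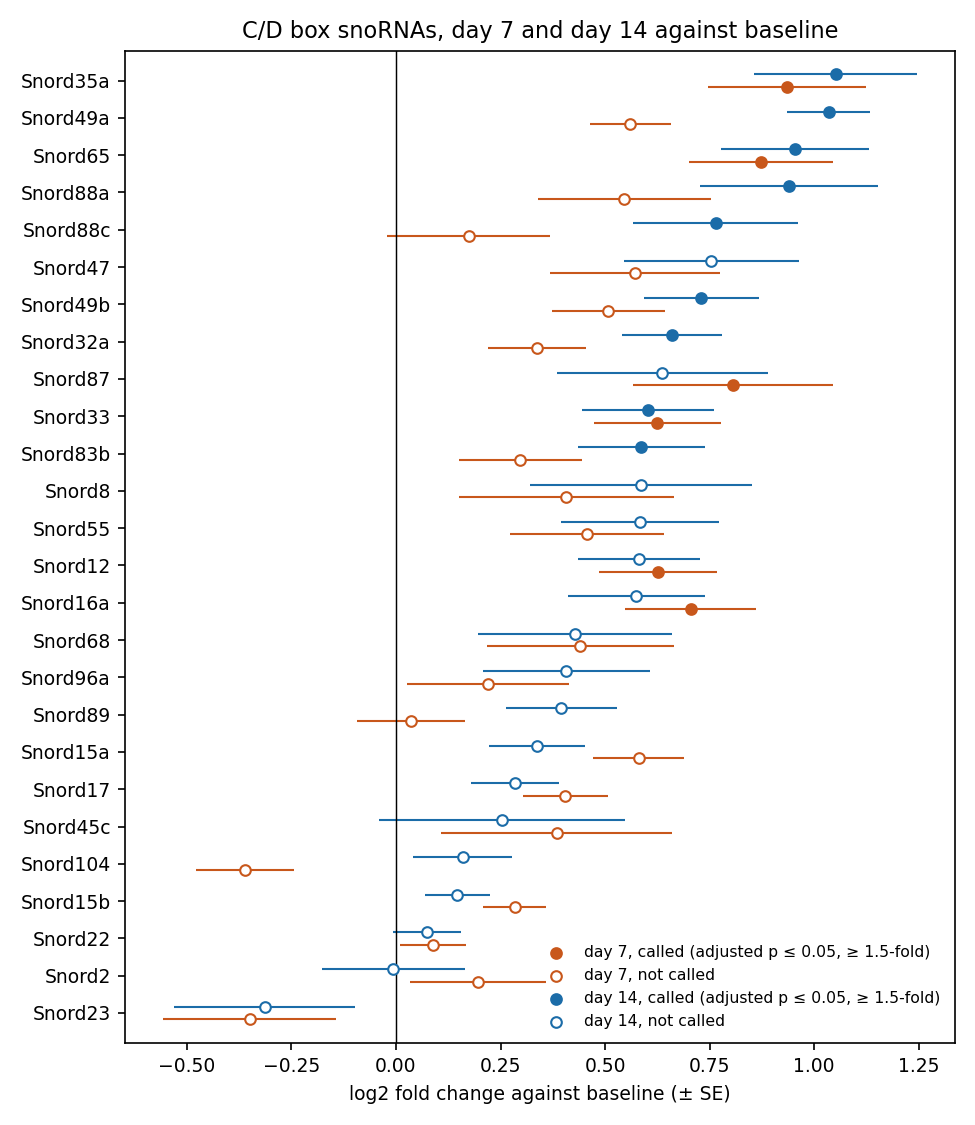
Log2 fold change of each of the 26 tested C/D box snoRNAs at day 7 (orange) and day 14 (blue) against the same baseline mice, with the SE of the edgeR test as bars and filled points for members called (adjusted p at most 0.05 and at least 1.5-fold). At each day 24 of 26 members lie to the right of 0, and the largest values are those of Snord35a.

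The 3 snoRNAs of 2410006H16Rik, a non-coding host, were all higher after injury. Snord49a, which directs methylation of large-subunit ribosomal RNA, had 5.63 CPM in the lowest baseline mouse, 6.25 at the median and 7.30 in the highest, against 7.47, 9.26 and 11.3 CPM at day 7 and 9.67, 13.3 and 15.3 CPM at day 14. All 8 day 7 mice and all 7 day 14 mice lay above every baseline mouse, and 5 of 7 day 14 mice also above every day 7 mouse. For Snord49a, the log2 fold change came to 0.56 ± 0.10 on day 7 (adjusted p = 0.000211, a 1.48-fold change just short of a call) and 1.04 ± 0.10 at day 14 (adjusted p = 2.76e-07). Snord65, which carries the small-subunit run shown above, had 1.30, 2.12 and 2.96 CPM in the lowest, median and highest baseline mouse, 2.93, 4.06 and 5.005 at day 7 and 2.46, 4.37 and 5.40 at day 14. All but 1 mouse at each day lay above the baseline range. On the log2 scale the fold change of Snord65 was 0.87 ± 0.17 at day 7 (adjusted p = 0.000733) and 0.95 ± 0.18 at day 14 (adjusted p = 0.00304), both called. Snord49b had 4.36, 6.80 and 9.23 CPM at baseline, 6.68, 9.90 and 11.8 at day 7 and 7.96, 11.4 and 13.4 at day 14. The groups overlapped, with 5 of 8 day 7 mice and 6 of 7 day 14 mice above every baseline mouse. Snord49b showed a log2 fold change of 0.51 ± 0.13 on day 7 (adjusted p = 0.00851, below 1.5-fold) and 0.73 ± 0.14 at day 14 (adjusted p = 0.0036, called). The host transcript itself had log2 fold changes of 0.16 and 0.23 (adjusted p = 0.344 and 0.41).

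The 3 members within Rpl13a, a gene for a large-subunit ribosomal protein, are known as guides for ribosomal RNA and also for a role in the response to lipid and oxidative stress. Snord35a had 0.693 CPM in the lowest baseline mouse, 1.39 at the median and 2.46 in the highest, against 2.42, 2.69 and 3.60 CPM at day 7 and 2.498, 3.08 and 3.81 CPM at day 14. Of the day 7 mice 5 of 8 lay above the baseline range, as did all 7 day 14 mice, and 1 baseline male was well above the other baseline mice. Snord35a had the highest log2 fold change of the tested members at both days, with 0.93 ± 0.19 on day 7 (adjusted p = 0.000929) and 1.05 ± 0.19 at day 14 (adjusted p = 0.00304), both called. Snord33 had 2.76, 4.27 and 5.21 CPM at baseline, 4.46, 6.62 and 8.30 at day 7 and 4.02, 5.89 and 9.26 at day 14. At day 7, 7 of 8 mice and at day 14, 6 of 7 were above the baseline range. On the log2 scale the fold change of Snord33 was 0.63 ± 0.15 at day 7 (adjusted p = 0.00444) and 0.60 ± 0.16 at day 14 (adjusted p = 0.0464), both called, and the first call was lost without mouse 1 or mouse 12 (log2 fold change down to 0.55). The second call was lost without any one of 15 mice (1, 2, 4, 5, 6, 7, 9, 11, 13, 16, 17, 19, 21, 23 and 24), with an adjusted p between 0.0521 and 0.128. Snord32a had 5.35, 7.12 and 8.16 CPM at baseline, 7.09, 9.01 and 10.3 at day 7 and 7.96, 10.1 and 13.6 at day 14. In each later group 6 mice exceeded the baseline range. Snord32a showed a log2 fold change of 0.34 ± 0.12 on day 7 (adjusted p = 0.0434, below 1.5-fold) and 0.66 ± 0.12 at day 14 (adjusted p = 0.00264, called). Rpl13a itself had log2 fold changes of -0.06 and 0.13 (adjusted p = 0.482 and 0.296).

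**Figure D2:**
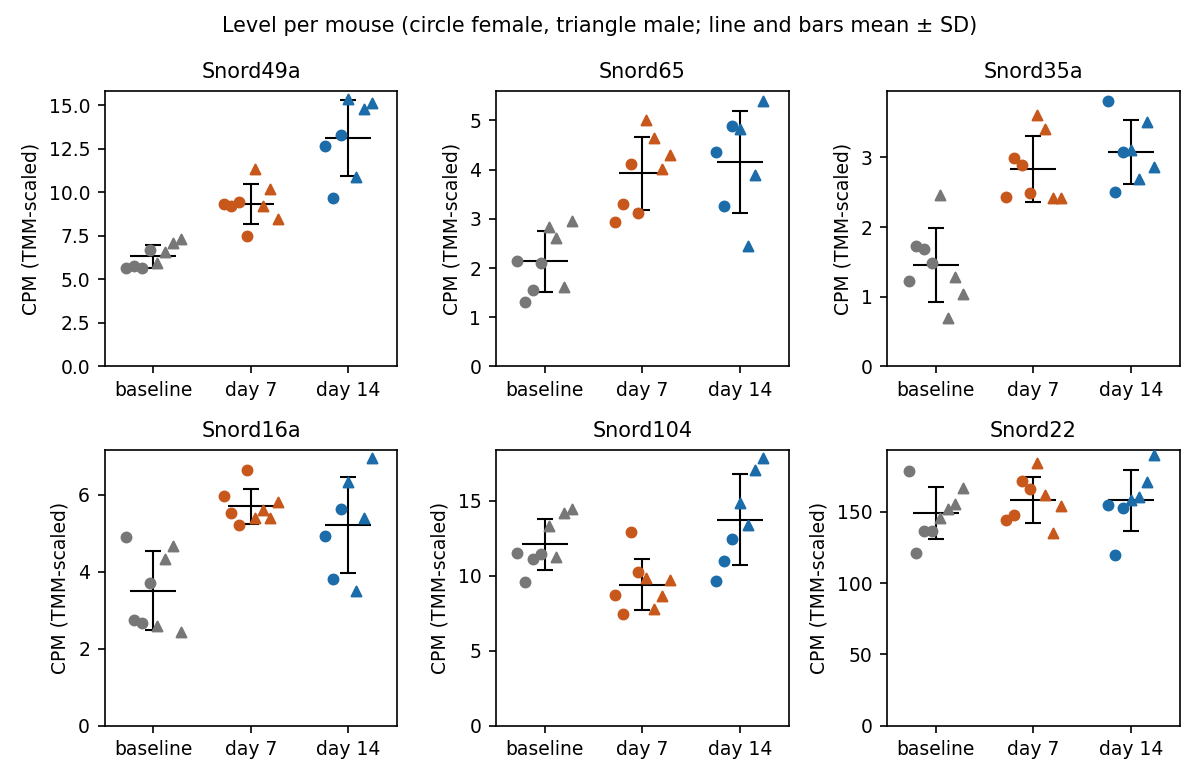
TMM-scaled CPM of 6 C/D box snoRNAs in each of the 23 mice, by time point, with females as circles, males as triangles and the mean ± SD of the 8, 8 and 7 mice in black. Snord49a rises over both time points without overlap with baseline, Snord104 has its lowest values at day 7, and Snord22 overlaps in all 3 groups.

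The other members called at day 7 lay in 3 different hosts. Snord16a, within Rpl4, another large-subunit protein gene, had 2.43, 3.22 and 4.90 CPM in the lowest, median and highest baseline mouse, 5.23, 5.57 and 6.64 at day 7 and 3.51, 5.39 and 6.95 at day 14. Every day 7 mouse lay above every baseline mouse, and 5 of 7 day 14 mice did. For Snord16a, the log2 fold change came to 0.70 ± 0.16 on day 7 (adjusted p = 0.00231, called) and 0.58 ± 0.16 at day 14 (adjusted p = 0.0758). Snord12, within the non-coding RNA Zfas1, had 2.89, 3.75 and 4.43 CPM at baseline, 4.85, 5.32 and 7.51 at day 7 and 3.51, 5.80 and 7.83 at day 14. Again every day 7 mouse was above the baseline range, with 6 of 7 at day 14. On the log2 scale the fold change of Snord12 was 0.63 ± 0.14 at day 7 (adjusted p = 0.00238, called) and 0.58 ± 0.15 at day 14 (adjusted p = 0.0374, just below 1.5-fold), and without mouse 8 or mouse 13 the day 7 value fell below 1.5-fold (log2 fold change down to 0.56). Snord87, within the non-coding Snhg6, had 0.492, 1.22 and 1.69 CPM at baseline, 1.25, 1.83 and 2.80 at day 7 and 1.17, 1.52 and 2.46 at day 14. The groups overlapped, with 6 of 8 day 7 mice but 2 of 7 day 14 mice above every baseline mouse. Snord87 showed a log2 fold change of 0.81 ± 0.24 on day 7 (adjusted p = 0.0185, called) and 0.64 ± 0.25 at day 14 (adjusted p = 0.239). Over all tested members, 3 had every day 7 mouse above every baseline mouse (Snord49a, Snord12 and Snord16a; 1.16% of all genes) and 3 had every day 14 mouse there (Snord49a, Snord88a and Snord35a; 0.435% of all genes).

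The last 3 members that were called rose at day 14. Snord88a had 1.23, 1.74 and 2.45 CPM in the lowest, median and highest baseline mouse, 1.93, 2.43 and 3.60 at day 7 and 2.57, 2.87 and 6.505 at day 14. All 7 day 14 mice lay above the baseline range, and the highest was a male, mouse 24, far above the next mouse at 3.47 CPM. For Snord88a, the log2 fold change came to 0.55 ± 0.21 on day 7 (adjusted p = 0.0658) and 0.94 ± 0.21 at day 14 (adjusted p = 0.0171), and without mouse 24 the day 14 call was lost (log2 fold change 0.72, adjusted p = 0.0571). Its near copy Snord88c had 1.01, 1.30 and 1.85 CPM at baseline, 1.27, 1.504 and 2.10 at day 7 and 1.74, 2.24 and 3.42 at day 14. Of the day 14 mice 6 of 7 lay above the baseline range and 5 of 7 above every day 7 mouse. On the log2 scale the fold change of Snord88c was 0.17 ± 0.19 at day 7 (adjusted p = 0.641) and 0.76 ± 0.20 at day 14 (adjusted p = 0.0424), a call lost without any one of 12 mice (1, 2, 3, 6, 7, 8, 9, 17, 19, 21, 23 and 24), with an adjusted p between 0.0513 and 0.118. Snord83b, within the large-subunit protein gene Rpl3, had 5.50, 7.89 and 11.1 CPM at baseline, 7.64, 10.2 and 13.9 at day 7 and 9.98, 11.7 and 16.5 at day 14. The groups overlapped at both days, with 6 of 7 day 14 mice above every baseline mouse. Snord83b showed a log2 fold change of 0.30 ± 0.15 on day 7 (adjusted p = 0.163) and 0.59 ± 0.15 at day 14 (adjusted p = 0.0444, 1.502-fold), a call lost without any one of 17 mice (2, 3, 4, 5, 6, 9, 11, 12, 13, 14, 16, 17, 18, 19, 21, 23 and 24), with a log2 fold change down to 0.51 and an adjusted p up to 0.108.

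The calls were not equally firm. With each of the 23 mice left out in turn, Snord87, Snord65, Snord35a and Snord16a stayed called at day 7 (4 of 6), and Snord49b, Snord49a, Snord65, Snord35a and Snord32a stayed called at day 14 (5 of 9). Some single omissions added a call. At day 7 this was so for Snord15a (without mouse 4, 5, 8, 9, 12 or 14), Snord49a (4, 12 or 16), Snord47 (1, 8 or 9), Snord88a (1 or 14) and Snord49b (5), and at day 14 for Snord12 (1, 3, 4, 5, 13, 18 or 22), Snord16a (1 or 22) and Snord47 (8 or 23). The day 14 calls of Snord33, Snord83b and Snord88c were also lost without a filter on low counts and in a fit of only the mice compared, and DESeq2 did not call Snord83b or Snord88c.

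The long members, which carried most of the counts, had lower fold changes than the short ones at the median of day 14. Snord17, the longest member and within Snx5, had 83.0, 86.6 and 123 CPM in the lowest, median and highest baseline mouse, 104, 110 and 165 at day 7 and 94.5, 113 and 140 at day 14. The groups overlapped through 1 high baseline male, mouse 5. For Snord17, the log2 fold change came to 0.41 ± 0.10 on day 7 (adjusted p = 0.00604, below 1.5-fold) and 0.28 ± 0.10 at day 14 (adjusted p = 0.2). Snord15b and Snord15a share the host Rps3, a small-subunit protein gene, and guide methylation of large-subunit ribosomal RNA. Snord15b had 58.6, 72.5 and 89.1 CPM at baseline, 78.0, 87.4 and 98.4 at day 7 and 71.0, 79.6 and 91.5 at day 14. The 3 groups overlapped. On the log2 scale the fold change of Snord15b was 0.28 ± 0.07 at day 7 (adjusted p = 0.00816, below 1.5-fold) and 0.15 ± 0.08 at day 14 (adjusted p = 0.424). Snord15a had 8.54, 9.60 and 13.05 CPM at baseline, 12.7, 15.03 and 17.99 at day 7 and 9.01, 12.5 and 19.3 at day 14. At day 7, 7 of 8 mice lay above the baseline range, and at day 14, 2 of 7. Snord15a showed a log2 fold change of 0.58 ± 0.11 on day 7 (adjusted p = 0.000504, a 1.495-fold change, just short of a call) and 0.34 ± 0.12 at day 14 (adjusted p = 0.154). The median log2 fold changes of the 4 long members were 0.34 on day 7 and 0.22 on day 14, and those of the 22 tested members of up to 120 bases were 0.45 and 0.59. The difference between the length classes was not tested. Summed over the 23 short members, the level ran from 66.1 to 87.8 CPM before injury, 96.0 to 117 on day 7 and 98.7 to 153 on day 14, so that neither later group overlapped baseline. Summed over the 4 long members it ran from 271 to 370, 352 to 426 and 300 to 416 CPM, with overlap.

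Snord104 was the member that fell at day 7, with TMM scaling but not with total count scaling. It guides methylation of large-subunit ribosomal RNA and had 9.54 CPM in the lowest baseline mouse, 11.5 at the median and 14.4 in the highest, against 7.41, 9.19 and 12.9 CPM at day 7 and 9.63, 13.3 and 17.9 CPM at day 14. The groups overlapped, with 4 of 8 day 7 mice below every baseline mouse and 3 of 7 day 14 mice above every baseline mouse. For Snord104, the log2 fold change came to -0.36 ± 0.12 on day 7 (adjusted p = 0.0301, below 1.5-fold) and 0.16 ± 0.12 at day 14 (adjusted p = 0.623), and with total count scaling the day 7 value was 0.08, where the median over all genes moved to 0.47. Snord23, within Nop53, had 1.30, 1.57 and 2.22 CPM at baseline, 1.12, 1.34 and 1.56 at day 7 and 0.543, 1.27 and 1.87 at day 14. Of the day 7 mice 3 of 8 and of the day 14 mice 4 of 7 lay below every baseline mouse. On the log2 scale the fold change of Snord23 was -0.35 ± 0.21 at day 7 and -0.31 ± 0.22 at day 14 (adjusted p = 0.249 and 0.583), the lowest value at day 14, and it was 0.10 at day 7 with total count scaling.

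The remaining members were not called at either day. Snord47, one of the snoRNAs of the growth-arrest transcript Gas5, had log2 fold changes of 0.57 at day 7 (adjusted p = 0.0495, below 1.5-fold) and 0.75 at day 14 (adjusted p = 0.0657). Snord55 had 0.46 and 0.58 (adjusted p = 0.0819 and 0.129), and Snord8 had 0.41 and 0.59 (adjusted p = 0.284 and 0.327). Snord68 had 0.44 and 0.43, Snord45c 0.38 and 0.25, Snord96a, within Rack1, 0.22 and 0.41, Snord89 0.04 and 0.40, and Snord2, within the helicase gene Eif4a2, 0.20 and -0.01, with adjusted p-values from 0.143 to 0.999. Snord66, within the translation factor gene Eif4g1, was not tested and had 0 to 6 counts in baseline mice, 7 to 12 on day 7 and 6 to 13 on day 14. The 41 Snord symbols below the count minimum had together 9.26 to 14.9 CPM before injury, 12.8 to 18.02 on day 7 and 13.6 to 18.96 on day 14, and none was tested.

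Between day 7 and day 14, 0 of 26 members were called by edgeR and 0 by DESeq2, where edgeR called 0.205% of all genes higher and 0.172% lower, and 6 members had an unadjusted p under 0.05 (14.1% of all genes). By adjusted p alone, 2 members were higher at day 14 (1.01% of all genes). Snord49a was higher by 0.47 ± 0.09 on the log2 scale (adjusted p = 0.00536) and Snord104 by 0.52 ± 0.12 (adjusted p = 0.0218). Without mouse 11, a day 7 female, Snord104 passed the 1.5-fold threshold (0.62 ± 0.10 on the log2 scale, adjusted p = 0.0013) and became the 1 member called. The values of Snord88c (0.59 ± 0.19, adjusted p = 0.111) and Snord15a (-0.24 ± 0.11, adjusted p = 0.303) did not pass.

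Sex did not separate the members at the call threshold. Between males and females over all time points, 0 of 26 members were called by edgeR and 0 by DESeq2, where edgeR called 0.0902% of all genes higher and 0.139% lower in males. An unadjusted p under 0.05 was found for 4 members (9.0% of all genes), which were Snord49a, Snord65, Snord104 and Snord15a, each higher in males by 0.18 to 0.30 on the log2 scale with an adjusted p of at least 0.439. The log2 difference was above 0, meaning higher in males, for 22 of 26 members against 49.9% of all genes. With total count scaling it was above 0 for 12 of 26, where the median over all genes moved as well. The members' median was 0.0652 beside -0.0003 over all genes with TMM scaling, and -0.0068 beside -0.0734 with total count scaling. For the interaction of sex and time point, 0 of 27 members passed an adjusted p of 0.05 by edgeR and 0 by DESeq2 (0.0% of 12933 genes by edgeR), and 2 had an unadjusted p under 0.05 (4.45% of all genes), which were Snord15b and Snord104.

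The fold changes of the host genes were mostly below those of their snoRNAs. Among the 19 hosts tested, by adjusted p alone 3 were higher and 8 lower at day 7 and 1 was higher at day 14 with TMM scaling, and 0 reached the call. With total count scaling 18 hosts were higher on day 7 and 13 on day 14, with 0 lower on either day, and their median lay 0.08 below that of all genes at day 7 and 0.07 above it at day 14, so that a lower host below means lower relative to most genes. Over the hosts the median log2 fold change was -0.06 on day 7 and 0.07 on day 14. Of the 24 tested members with a tested host, 21 had a larger log2 fold change than the host at day 7 and 21 at day 14, with either scaling. The exceptions at both days were Snord2, Snord22 and Snord23. Rpl4, the host of Snord16a, had a log2 fold change of -0.41 at day 7 (adjusted p = 6.83e-05), where Snord16a had 0.70. Rack1 with -0.31, Rpl13 with -0.27 and Rpl3 with -0.18 were also lower at day 7 (adjusted p = 0.000157, 0.000671 and 0.0103), and their 3 snoRNAs had values between 0.22 and 0.44. Gas5 was higher at both days, by 0.45 (adjusted p = 6.74e-05) and 0.38 (adjusted p = 0.00445). Snx5 and Eif4a2 were higher at day 7 by 0.32 and 0.22 (adjusted p = 0.00388 and 0.0179), and Chd8, Nop53 and Eif4g1 were lower, with -0.14, -0.21 and -0.32 (adjusted p = 0.0366, 0.0102 and 0.000628). Snhg6, Zfas1 and Snhg1 had 0.33, 0.35 and 0.14 at day 7 and 0.43, 0.23 and 0.21 at day 14, Rps3 had -0.05 and 0.07, Rabggtb 0.09 and 0.14 and 2410002F23Rik -0.08 and -0.01, with adjusted p-values from 0.0901 to 0.986. By kind of host, the median log2 fold changes of the members were 0.45 and 0.58 at day 7 and day 14 in ribosomal protein genes (10 members), 0.57 and 0.68 in non-coding genes (8) and 0.38 and 0.28 in other protein-coding genes (7). The differences between a snoRNA and its host and between kinds of host were not tested.

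**Figure D3:**
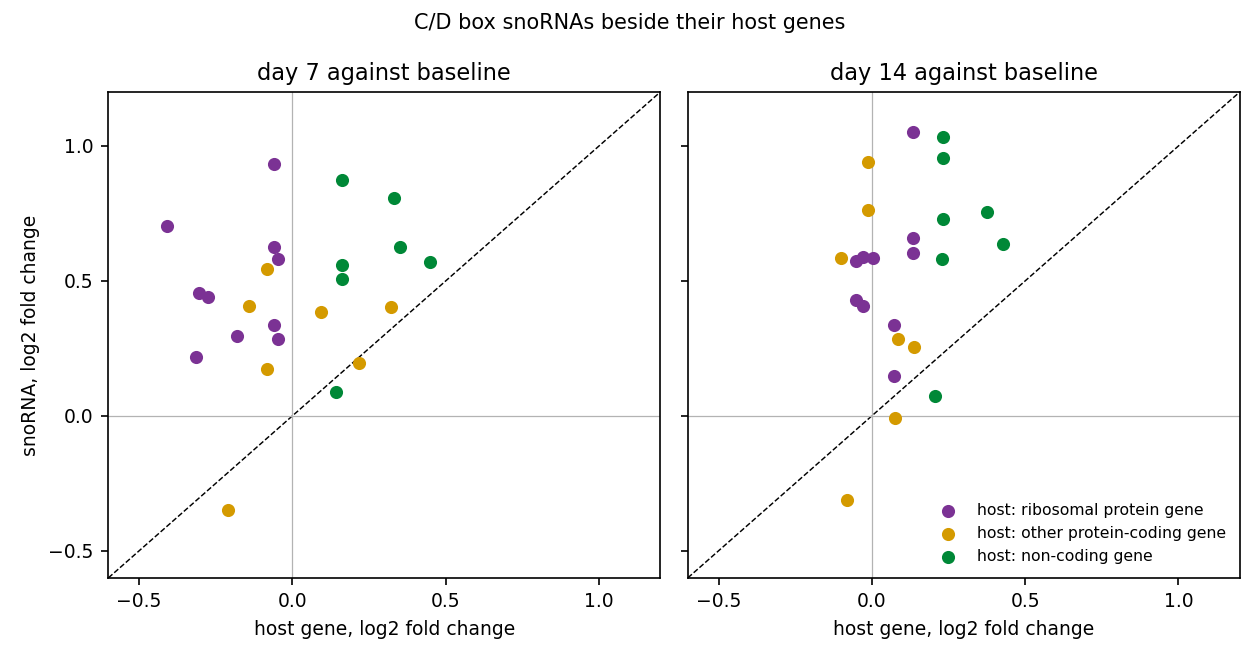
Log2 fold change of 24 C/D box snoRNAs (vertical axis) against that of the host gene (horizontal axis) at day 7 and day 14 against baseline, coloured by the kind of host, with the dashed line at equal values. In each panel 21 of the 24 points lie above the line, and the hosts stay between -0.41 and 0.45.

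Genes for the proteins that build and use the particles were on 6 lists, with 79 genes tested. By adjusted p alone, 6 of the 79 were higher at day 7 and 0 at day 14, with 0 lower at either day. Over all genes 8.86% and 1.05% were higher, and 9.7% and 0.525% lower. Of 4 C/D box core proteins, Nop58 was higher at day 7 (log2 fold change 0.49, adjusted p = 0.00102) and the other 3 were not, with fibrillarin (Fbl) at 0.03, Nop56 at 0.16 and Snu13 (Nhp2l1 in the files) at -0.20 (adjusted p = 0.89, 0.271 and 0.219). At day 14, 0 of the 4 passed an adjusted p of 0.05, with values from -0.23 to 0.22. Of 8 assembly factors, 0 passed at either day, with medians of 0.01 and -0.02. Of 29 proteins of the U3 particle and the small subunit processome, which act in the first cleavages of the ribosomal precursor, 1 was higher at day 7 (Dcaf13, 0.25, adjusted p = 0.0303) and 0 at day 14. Of 14 factors of snoRNA capping, transport and trimming, 2 were higher at day 7, the exonuclease Xrn2 (0.28, adjusted p = 0.00561) and the La protein Ssb (0.33, adjusted p = 0.000692), and 0 at day 14. Of 6 H/ACA box core proteins and their assembly factors, Nop10 was higher at day 7 (0.22, adjusted p = 0.0322), and of 18 genes for RNA polymerase I and its factors, Taf1d was (0.51, adjusted p = 0.000171), with 0 in each list at day 14. None of these reached 1.5-fold with TMM scaling. With total count scaling 73 of the 79 genes on these 6 lists were higher at day 7 by adjusted p alone and 20 at day 14, and the list medians minus the median of all genes ran from -0.04 to 0.17 on day 7 and from -0.05 to 0.02 on day 14.

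Members of other small RNA classes were called higher as well, where 3.82% of all genes were called higher at day 7 and 0.697% at day 14. The paper could not reproduce by RT-qPCR the change of the snoRNAs it assayed, all of them Snora symbols. It describes such assays of snoRNAs as technically difficult, and holds that read coverage, though no test of significance, does point to a change. From its sequencing the paper had listed Snord65 and Snord35a as higher at day 7 and day 14. It listed Snord49a, Snord49b and Snord88a as higher at day 14. Of the Snora symbols 30 of 35 were tested, and 11 were called higher at day 7 and 14 at day 14, with medians of 0.51 and 0.55 and all 30 values above 0 at both days. Of 7 Scarna symbols (the small RNAs of Cajal bodies), 4 and 2 were called higher, with medians of 0.60 and 0.46. Of 8 other structural RNAs, 4 and 2 were called higher, with medians of 0.58 and 0.51. At each day 7 of the 8 were above 0, and the lowest values were -0.05 at day 7 and -0.14 at day 14. With total count scaling 30 and 28 of the 30 Snora symbols were higher by adjusted p alone, against 21 and 18 with TMM, 7 and 7 of the 7 Scarna symbols against 6 and 3, and 7 and 7 of the 8 structural RNAs against 6 and 3. The telomerase RNA Terc had 0.98 and 0.54, the minor spliceosome RNAs Rnu11 and Rnu12 had 0.96 and 0.69 and 0.82 and 0.80, and Rpph1, the RNA of ribonuclease P, had 0.60 and 0.30. The ranges of all 4 classes overlapped at both days, and no difference between the classes was tested.

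**Figure D4:**
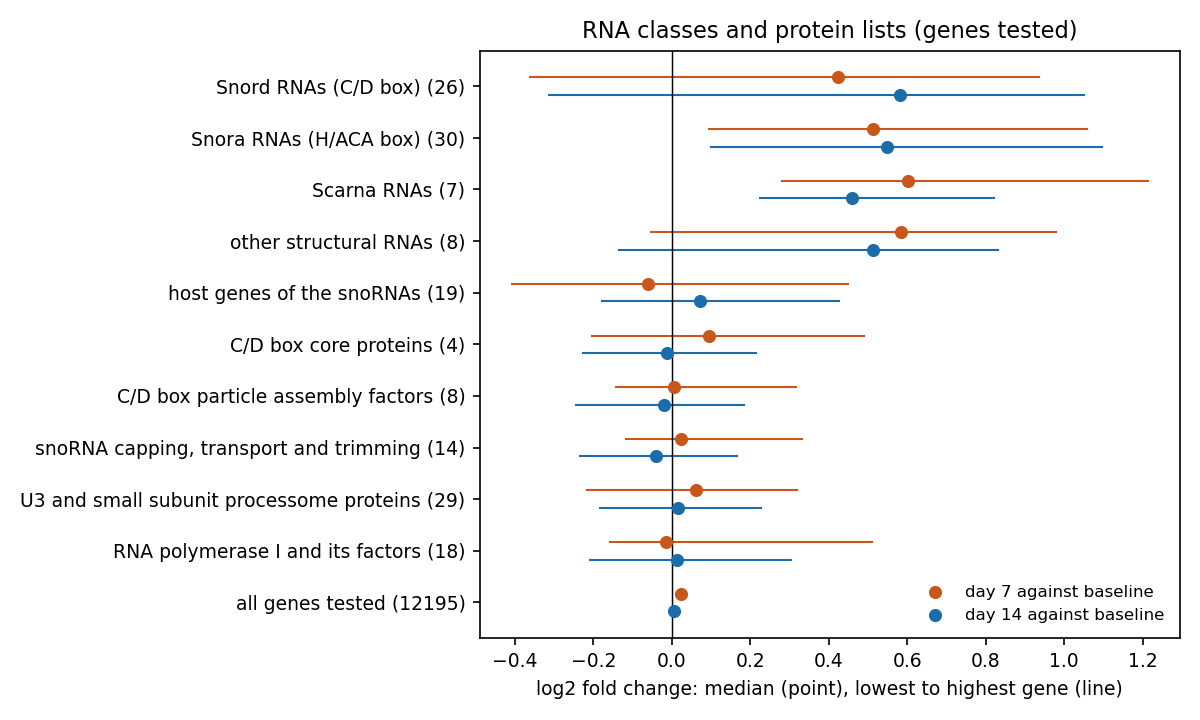
Median log2 fold change (points) with the lowest and highest gene (lines) at day 7 and day 14 against baseline for the C/D box snoRNAs, 3 other classes of small RNA, the host genes, 5 lists of proteins and all genes tested (median only). The 4 small RNA classes have medians between 0.42 and 0.60, and the hosts and the 5 protein lists drawn between -0.06 and 0.10. The H/ACA box core proteins, with medians of 0.18 and 0.03, are not drawn.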

How the data were processed

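Total RNA from the pancreas head was depleted of ribosomal RNA and sequenced as paired reads of 75 bases. Per the labels, the authors examined reads with FastQC, trimmed them with Trim Galore and cutadapt, aligned them to mm10 with STAR 2.5.2a and counted fragments per gene with featureCounts. The deposited values are raw counts per gene symbol. The gene annotation and strand setting are not given in the sources used here. The smallest level taken as detectable is 3 counts, which covers counting error only.

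Counts were scaled by TMM and tested with edgeR 4.0.16 (R 4.3.3), with estimateDisp, robust glmQLFit and glmQLFTest, in 1 fit of 23 mice with time point and sex after filterByExpr by time point (12195 genes). The interaction was fitted on 6 groups of sex and time point (12933 genes). P-values are two-sided with Benjamini-Hochberg adjustment over all genes tested. The script was tested on simulated data.

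Alternatives were DESeq2 1.42.0, its size factors, total count scaling, other filters, no fold threshold, only the mice compared, no sex covariate, another member rule and leaving out each mouse. No libraries of a group were alike within sampling noise. Every tested member is named with both fold changes, and Snord66, which was not tested, with its counts. Levels are given for members called, the 5 most abundant at baseline and those with extreme fold changes. The members and gene lists were chosen with earlier results of these data known. The values of 1 host gene are not reported here by name. Positions, hosts and sequences are from GENCODE vM21, to which all 68 Snord symbols matched.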

Additional observations from a re-analysis of the deposited data

Results flagged for a closer look

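Within each group of 7 or 8 mice, the highest and lowest value of each member and of the summed share of counts was compared with Dixon's 95% limit. Of 84 groups of values, 5 held a mouse that lay apart, and chance alone gives about 1 in 20. Snord2 had 3.32 CPM in mouse 12, a day 7 female, where the next mouse had 2.62 CPM. Snord17 had 123 CPM in mouse 5, a baseline male, where the next had 92.4 CPM. Snord88a had 6.505 CPM and Snord15a 19.3 CPM in mouse 24, a day 14 male, where the next mice had 3.47 and 13.4 CPM. The share of all counts taken by the 27 members was 0.0733% in mouse 10, a day 7 female, where the next mouse had 0.0593%. Before TMM scaling that mouse also had the highest total count (9567446).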

How the results depend on the processing

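The members called at day 7 numbered 6 with edgeR, 22 with total count scaling and 14 by adjusted p alone. At day 14 they numbered 9, and 18 with total count scaling. Total count scaling also moved the median log2 fold change of all genes to 0.47 at day 7 and 0.22 at day 14, and the members' median lay 0.41 and 0.57 above it, against 0.40 and 0.58 with TMM. Between the 2 later days they numbered 0, and 2 by adjusted p alone. Leaving out each mouse gave 5 to 8 calls at day 7, 5 to 11 at day 14, the fewest without mouse 24, and 0 to 1 between the days. Every other alternative stayed within 1.5 times these counts, and the sex and interaction counts stayed at 0 under all alternatives run. The values that turned direction belonged to members that were not called. With total count scaling Snord104 and Snord23 had 0.0805 and 0.0955 at day 7 and Snord2 had 0.2088 at day 14. Without a filter Snord2 had 0.0043 at day 14. With single mice left out, Snord89 at day 7 went down to -0.0396 and up to 0.0931, and Snord2 at day 14 from -0.0869 to 0.0583. The cause was not tested. The share of all counts taken by the members was 1.65 times the baseline share at day 7 and 1.39 times at day 14, and 1.203 and 1.2 times with TMM-scaled library sizes. Without the 20 most abundant symbols in the total it was 1.27 and 1.21 times. No paired analysis was possible because the mouse numbers are not shared between groups. Members near 1 CPM rest on a median of 6.72 fragments a mouse at baseline and 9.94 on day 7, which limits them to large differences.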
